A study of Homo sapiens with 6 samples.

Results

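The TNF superfamily ligands and receptors were followed in A673/TR/shEF cells by RNAseq. Members were chosen by a rule on gene names, which was set with earlier results of these data known. They were the rows of the deposited table whose symbol is TNFSF or TNFRSF followed by a number and at most 1 letter, together with TNF, LTA, LTB, LTBR, CD40, CD40LG, CD70, CD27, FAS, FASLG, EDA2R and EDAR. This gave 44 of the 26364 gene symbols in the table, of which 17 are ligands, 7 are receptors with a death domain, 4 are decoy receptors and 16 are receptors without a death domain.

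The A673 line was derived from an Ewing sarcoma and makes the fusion protein EWSR1::FLI1, a chimeric ETS transcription factor. In the A673/TR/shEF derivative, a tetracycline repressor holds back an shRNA that targets the chimeric mRNA, and doxycycline releases it. All 6 libraries come from this engineered line, grown in DMEM with FBS, blasticidin and zeocin, and the shRNA construct is carried by both groups. The 3 EWSR1::FLI1 high libraries were cultured without doxycycline and the 3 EWSR1::FLI1 low libraries with 1 µg/mL doxycycline for 72 h, so the knockdown cannot be told apart from doxycycline itself. The design text speaks of clones and the sample titles of experiments. Which of these the replicates are is not settled, so p-values measure only the spread between these libraries, which may be technical.

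TNF superfamily ligands are mostly made as membrane-bound trimers, and some are cut free as soluble cytokines. Their receptors pass the signal on through TRAF adaptors to NF-kB and MAP kinases or, where a death domain is present, through FADD and TRADD to caspases. Decoy receptors bind ligand without passing a death signal on. Several members, among them TNFSF18, TNFSF4 and TNFSF15, are best known as co-stimulators of T cells.

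The libraries held between 6980361 and 16658933 reads on genes. FLI1, whose 3′ part is included in the fusion transcript, had FPKM values (fragments scaled for gene length and library size) of 11.3, 12.7 and 14.2 in the EWSR1::FLI1 high libraries and of 2.91, 4.29 and 3.68 in the EWSR1::FLI1 low libraries (log2 fold change -1.57, SE 0.18, limma adjusted p = 0.000676). NR0B1, a known target of the fusion, had a log2 fold change of -2.56 (adjusted p = 0.00172). Of 6 Ewing sarcoma markers, 5 fell and CD99 did not pass the test. The count was 2 without EWSR1::FLI1 high replicate 2, 3 without EWSR1::FLI1 high replicate 3, and between 4 and 6 without any other library. The 8 leukocyte markers summed to between 1.76 and 2.86 FPKM in the EWSR1::FLI1 high libraries and between 1.93 and 5.33 in the EWSR1::FLI1 low libraries. No leukocyte marker had over 44 reads in a library. The 3 endothelial markers summed to between 0.614 and 0.806 FPKM in the EWSR1::FLI1 high libraries and between 1.12 and 2.17 in the EWSR1::FLI1 low libraries. The part of these markers in the members' values was not tested.

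Of the 44 members, 23 had a mean of at least 0.5 FPKM over the 6 libraries and were tested with limma on log2(FPKM + 1), a scale that understates the change of low genes. A call means an adjusted p under 0.01 over the 15504 genes tested. The ligands TNFSF18, TNFSF15 and TNFSF4 rose upon EWSR1::FLI1 knockdown, and 20 of the 23 members did not pass the test. Thus 3 of 23 members were called higher, where 4.51% of all tested genes were, and 0 of 23 were called lower, where 3.37% of all tested genes were. At an unadjusted p under 0.05, 6 members were higher and 4 were lower, where 15.6% and 18.7% of all tested genes were. With limma-voom on the recovered reads, 4 were called higher (the added member was TNFRSF1B) and 1 lower (FAS), where 7.99% and 7.37% of all tested genes were. The median log2 fold change was 0.59 over the 9 tested ligands and 0.07 over the 14 tested receptors, against -0.05 over all tested genes. Of the 23 tested members, 6 had a mean under 0.5 FPKM in one of the groups and passed the filter through the other group, namely TNFRSF1B, TNFRSF19, TNFRSF17, TNFSF10 and TNFSF8 through EWSR1::FLI1 low and TNFRSF4 through EWSR1::FLI1 high. Fewer cells that express a gene and less RNA per cell cannot be told apart in these bulk libraries.

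**Figure D1:**
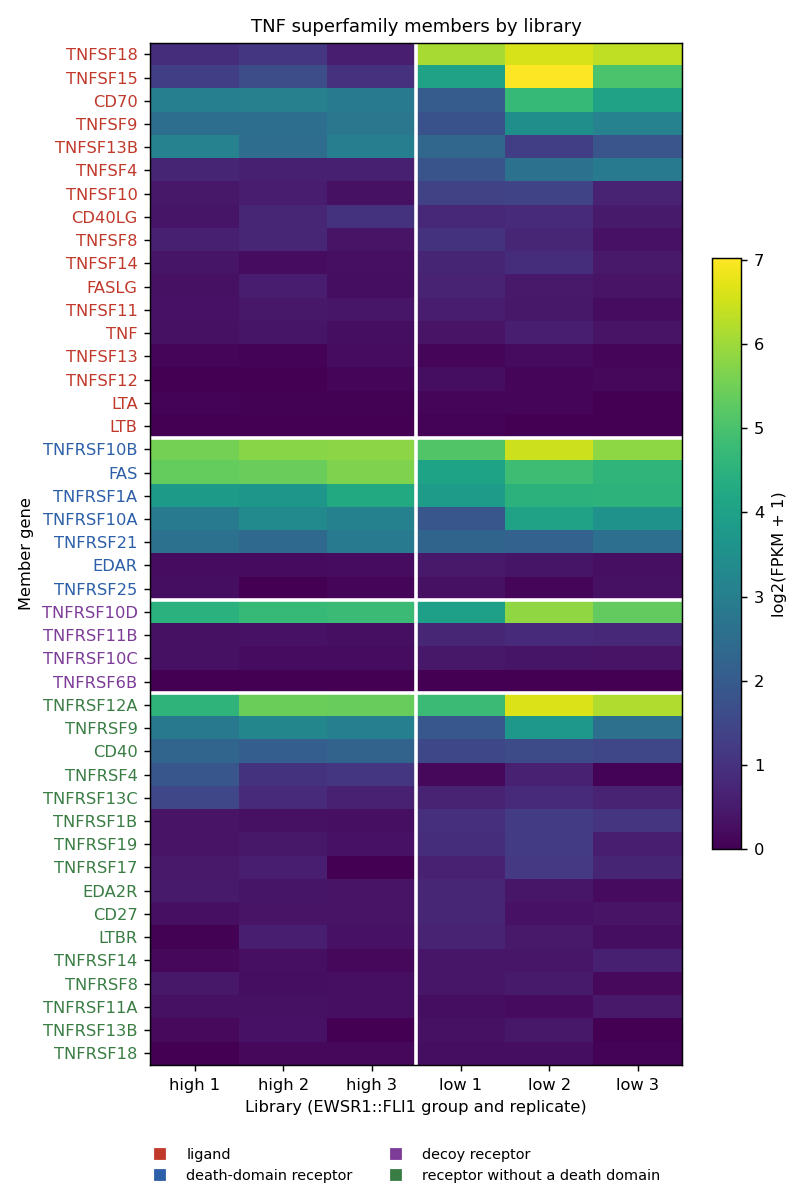
Level of each of the 44 members on the log2(FPKM + 1) scale (colour), with 1 column per library and members grouped by role and ordered by mean level. The rows of TNFSF18, TNFSF15 and TNFSF4 brighten between the EWSR1::FLI1 high and EWSR1::FLI1 low libraries, while TNFRSF10B, FAS, TNFRSF12A and TNFRSF10D are bright in both.

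TNFSF18, the ligand of the co-stimulatory receptor GITR, showed the largest change of the 23 tested members. Its FPKM values were 0.892, 1.17 and 0.518 in the EWSR1::FLI1 high libraries, and 66.9, 95.03 and 79.8 in the EWSR1::FLI1 low libraries. Every EWSR1::FLI1 low library thus lay far above every EWSR1::FLI1 high library, and the values within each group lay close together by comparison. The mean was 0.861 ± 0.329 FPKM in EWSR1::FLI1 high and 80.6 ± 14.1 FPKM in EWSR1::FLI1 low (SD, n = 3), which is a change of 5.45 on the log2 scale (SE 0.21, limma adjusted p = 8.47e-06). By log2 fold change this was rank 3 of the 15504 tested genes. The starting level rested on few reads, namely 7, 7 and 3, against 445, 583 and 930 reads in the EWSR1::FLI1 low libraries. The ratio of the summed reads, scaled by the libraries' size factors, was 92.4 with a 95% exact binomial interval of 57.6 to 159, which covers counting error only. By mean FPKM, TNFSF18 stood above 19.2% of the tested genes in the EWSR1::FLI1 high group and above 95.04% of them in the EWSR1::FLI1 low group. These levels, unlike the ratio, depend on the gene length behind the deposited FPKM. Rescaled to exon length, as described for TNF below, TNFSF18 came to between 0.199 and 0.452 FPKM in EWSR1::FLI1 high. In EWSR1::FLI1 low it came to between 25.8 and 36.6 FPKM.

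TNFSF15 encodes TL1A, a ligand of the death-domain receptor TNFRSF25. Its FPKM values were 1.48, 2.13 and 0.992 in the EWSR1::FLI1 high libraries, and 15.6, 128 and 31.7 in the EWSR1::FLI1 low libraries. The groups did not overlap, but EWSR1::FLI1 low replicate 2 stood far above the other EWSR1::FLI1 low libraries. The mean was 1.53 ± 0.572 FPKM in EWSR1::FLI1 high and 58.6 ± 61.0 FPKM in EWSR1::FLI1 low (SD, n = 3), which is a change of 4.05 on the log2 scale (SE 0.62, adjusted p = 0.00272). Against the EWSR1::FLI1 high mean, the EWSR1::FLI1 low libraries were 10.2, 83.7 and 20.7 times as high for replicates 1, 2 and 3. Leaving out EWSR1::FLI1 low replicate 2 gave a log2 fold change of 3.23 (adjusted p = 0.000319). The call was lost when EWSR1::FLI1 high replicate 2 (adjusted p = 0.0136), EWSR1::FLI1 high replicate 3 (0.0172) or EWSR1::FLI1 low replicate 3 (0.0133) was left out.

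TNFSF4 encodes the OX40 ligand. Its FPKM values were 0.640, 0.539 and 0.520 in the EWSR1::FLI1 high libraries, and 2.57, 5.21 and 6.59 in the EWSR1::FLI1 low libraries. The groups again did not overlap, and replicate 1 was the lowest EWSR1::FLI1 low library. The mean was 0.567 ± 0.0643 FPKM in EWSR1::FLI1 high and 4.79 ± 2.04 FPKM in EWSR1::FLI1 low (SD, n = 3), which is a change of 1.82 on the log2 scale (SE 0.26, adjusted p = 0.00207). The reads behind these values were 25, 16 and 15 against 85, 159 and 382, and the ratio of summed reads scaled by size factors was 8.97 (95% interval 6.82 to 12.01). The call was lost without EWSR1::FLI1 high replicate 2 (adjusted p = 0.0146) and without EWSR1::FLI1 high replicate 3 (0.0130).

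TNFSF18 and TNFSF4 are neighbours. On GRCh37, with genes placed by GENCODE v44, TNFSF18 (ENSG00000120337) lies at chr1:173008342-173020081 and TNFSF4 (ENSG00000117586) at chr1:173152870-173176470, both on the minus strand. They are 132788 bases apart, with no other gene of the deposited table between them. The genes that flank the pair were not called. SUCO, on the TNFSF18 side, had a log2 fold change of 0.37 (adjusted p = 0.257), and PRDX6, on the TNFSF4 side, one of 0.32 (adjusted p = 0.339). FASLG, the FAS ligand, lies between SUCO and TNFSF18, 372325 bases from the latter, and had at most 10 reads in a library, and SLC9C2, beyond PRDX6, had at most 18. TNFSF15 (ENSG00000181634) lies at chr9:117546932-117568319, also on the minus strand, 87303 bases from TNFSF8, the ligand of CD30. TNFSF8 had a log2 fold change of 0.13 (adjusted p = 0.705). The window around TNFSF15 was chosen after its values were seen. In it, TNC (tenascin C, a matrix protein), the gene beyond TNFSF8, rose by 1.29 on the log2 scale (adjusted p = 0.00704), while on the other side ATP6V1G1 had a log2 fold change of 0.09 and AKNA one of -0.11, neither of them called.

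The promoters of the 3 called ligands are shown because EWSR1::FLI1 is an ETS factor, and ETS factors bind the core GGAA. Each is the stretch of 250 bases before the RefSeq start (table of GRCh38.p14), found at 1 place on GRCh37 by exact match and printed 5′ to 3′ on the gene's own strand, the minus strand. The places are chr1:173020082-173020331 for TNFSF18, chr1:173174672-173174921 for TNFSF4 and chr9:117554811-117555060 for TNFSF15. The RefSeq start of TNFSF18 is the GENCODE gene end, that of TNFSF4 lies 1799 bases inside the GENCODE gene, and that of TNFSF15 lies 13509 bases inside it. The windows of TNFSF4 and TNFSF15 are therefore not at the outermost annotated start, and which start these cells use was not tested. Capitals mark the ETS core, as GGAA or, on the opposite strand, TTCC.
TNFSF18: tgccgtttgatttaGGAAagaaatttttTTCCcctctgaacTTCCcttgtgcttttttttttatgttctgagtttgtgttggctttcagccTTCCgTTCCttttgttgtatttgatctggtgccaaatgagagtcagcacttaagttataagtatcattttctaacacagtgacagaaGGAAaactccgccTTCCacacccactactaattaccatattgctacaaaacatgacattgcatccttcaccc
TNFSF4: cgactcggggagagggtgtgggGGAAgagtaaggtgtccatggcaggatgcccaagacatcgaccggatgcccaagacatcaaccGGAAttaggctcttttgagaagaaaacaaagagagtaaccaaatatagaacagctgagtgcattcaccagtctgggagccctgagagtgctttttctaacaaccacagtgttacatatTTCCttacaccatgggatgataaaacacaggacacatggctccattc
TNFSF15: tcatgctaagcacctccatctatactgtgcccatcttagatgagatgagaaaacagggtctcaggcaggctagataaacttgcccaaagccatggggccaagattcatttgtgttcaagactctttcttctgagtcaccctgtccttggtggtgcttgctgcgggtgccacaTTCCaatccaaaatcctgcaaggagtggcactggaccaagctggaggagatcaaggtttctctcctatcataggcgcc

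The TNFSF18 window holds 7 cores, that of TNFSF4 holds 3 and that of TNFSF15 holds 1. The median of the 27305 promoters in the table is 3 cores, and 4.23% of them hold at least 7. Of the 44 members, 29 had a promoter in the table. The core, searched on both strands, occurs in 89.7% of these 29 and in 92.8% of all promoters. Its tandem form GGAAGGAA, which contains the core more than once, occurs in 3.45% and 2.99%, and in none of the 3 windows printed. The AP-1 motif TGANTCA occurs in 17.2% of the member promoters and 6.6% of all. It is present in those of TNFSF15, FAS, TNFRSF9, CD27 and TNFSF14. The NF-kB consensus motif occurs in 13.8% of the member promoters and 9.57% of all, and was found in those of TNFRSF9, TNFRSF14, LTB and TNFSF14. These are matches of letters and not measured binding.

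Of the receptors of the raised ligands, TNFRSF18, TNFRSF25 and TNFRSF6B had at most 7 reads in any library. TNFRSF18, the receptor of TNFSF18, had 0, 1 and 1 reads in the EWSR1::FLI1 high libraries and 2, 2 and 1 in the EWSR1::FLI1 low libraries. TNFRSF25, the signalling receptor of TNFSF15, had 4, 0 and 1 reads against 4, 1 and 7. TNFRSF6B, the soluble decoy for TNFSF15, FASLG and TNFSF14, was listed at 0 in all 6 libraries. The read-through transcript that shares its sequence, RTEL1-TNFRSF6B, had at most 1 read. Reads in the shared sequence may have been counted for neither gene. Only TNFRSF4, the receptor of TNFSF4, passed the filter among these 4 receptors. Its FPKM values were 2.67, 1.02 and 1.17 in the EWSR1::FLI1 high libraries and 0.102, 0.552 and 0.0581 in the EWSR1::FLI1 low libraries. The groups did not overlap, with lower values in all 3 EWSR1::FLI1 low libraries, but the reads were few, 31, 9 and 10 against 1, 5 and 1. The log2 fold change of -1.05 (SE 0.26) did not pass (adjusted p = 0.0243). The ratio of summed reads scaled by size factors was 0.112 (95% interval 0.0430 to 0.249, counting error only).

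**Figure D2:**
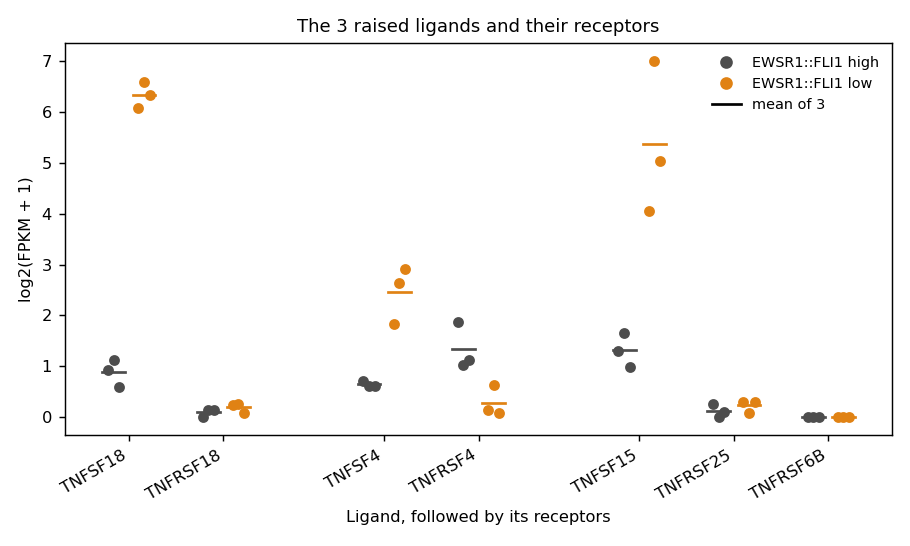
Level of the 3 called ligands and of their receptors on the log2(FPKM + 1) scale, with 1 point per library, EWSR1::FLI1 high in grey and EWSR1::FLI1 low in orange, and a bar at each mean of 3. Each ligand sits higher in all 3 EWSR1::FLI1 low libraries, TNFRSF4 sits lower in them, and TNFRSF18, TNFRSF25 and TNFRSF6B stay close to 0 in all 6 libraries.

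Among the other ligands, 6 passed the filter and none was called. TNFSF13B (BAFF, a survival factor of B cells) was the only tested ligand with lower values in every EWSR1::FLI1 low library. Its FPKM values were 7.60, 4.65 and 6.96 in the EWSR1::FLI1 high libraries and 4.0, 1.46 and 2.60 in the EWSR1::FLI1 low libraries, a log2 fold change of -1.04 (SE 0.28, adjusted p = 0.0297). Its receptors TNFRSF13B, TNFRSF13C and TNFRSF17 had at most 18 reads in any library. Of all tested genes, 23.6% had every EWSR1::FLI1 low library below every EWSR1::FLI1 high library, as TNFSF13B did. TNFSF10 (TRAIL, the ligand of the death receptors TNFRSF10A and TNFRSF10B) had 0.373, 0.450 and 0.253 FPKM in the EWSR1::FLI1 high libraries and 1.58, 1.71 and 0.586 in the EWSR1::FLI1 low libraries. These groups did not overlap, and the log2 fold change of 0.72 (SE 0.23) did not pass (adjusted p = 0.0563). CD70 (the ligand of CD27) had a log2 fold change of 0.59 and TNFSF9 (the ligand of TNFRSF9) one of 0.18. TNFSF8 had a log2 fold change of 0.13, and CD40LG (the ligand of CD40, typical of activated T cells) one of -0.01. Their groups overlapped, with adjusted p values of 0.503, 0.788, 0.705 and 0.978.

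The 8 ligands under the filter were FASLG, TNF, TNFSF11, TNFSF12, TNFSF13, TNFSF14, LTA and LTB. TNF itself had between 21 and 57 reads in a library, and its mean FPKM was 0.257 ± 0.05 in the EWSR1::FLI1 high group and 0.363 ± 0.131 in the EWSR1::FLI1 low group (SD, n = 3), with overlapping groups (exact two-sided permutation p = 0.3). The levels of TNF, LTA and LTB, neighbours on chromosome 6, are understated in the deposited FPKM. The gene length that FPKM and reads together imply, divided by the exon length in GENCODE and by the median of this ratio over the tested genes, was 11.0 for TNF, 9.14 for LTA and 6.58 for LTB, and between 0.337 and 1.48 for the 40 other members with reads. Rescaled to its exon length, TNF came to a mean of 3.40 FPKM, which is over the filter, and LTA and LTB to 0.391 and 0.105, which are not. TNF was therefore left untested because of the length used, not because of few reads. So rescaled, TNFRSF11B (0.660 FPKM), FASLG (0.545) and EDA2R (0.518) would also pass the filter. CD40LG (0.251) and TNFRSF13C (0.292), both tested, would not. TNFSF14 (LIGHT, the ligand of TNFRSF14 and LTBR) was the only one of the 8 whose groups did not overlap. It had 10, 4 and 5 reads in the EWSR1::FLI1 high libraries and 17, 21 and 18 in the EWSR1::FLI1 low libraries. Of all genes under the filter with reads, 8.68% had EWSR1::FLI1 low above EWSR1::FLI1 high in this way, and 2.09% had it below. LTB, TNFSF12 and TNFSF13 had at most 3 reads in any library.

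The makeup of the ligand pool differed between the groups. TNFSF18, TNFSF15 and TNFSF4 together held between 8.41% and 16.1% of the summed ligand FPKM in the EWSR1::FLI1 high libraries and between 80.7% and 84.8% in the EWSR1::FLI1 low libraries. The ligands held between 9.96% and 12.7% of the summed FPKM of all members in the former and between 37.9% and 45.0% in the latter. No EWSR1::FLI1 low library overlapped the EWSR1::FLI1 high libraries in either share. With TNF, LTA and LTB rescaled as above, a step added after the data were seen, the first share was between 7.69% and 14.2% in the EWSR1::FLI1 high libraries and between 79.1% and 82.5% in the EWSR1::FLI1 low libraries. These shares rest on members picked by their calls and are a description, with no test. TNFSF18, whose length ratio was 0.385, was not rescaled, so both shares depend on the length used.

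Of the death-domain receptors, 5 passed the filter and none was called. FAS, the receptor of FASLG, had FPKM values of 39.8, 41.2 and 49.7 in the EWSR1::FLI1 high libraries and of 15.9, 27.3 and 22.9 in the EWSR1::FLI1 low libraries. All 3 EWSR1::FLI1 low libraries lay below all EWSR1::FLI1 high libraries. The mean was 43.6 ± 5.38 FPKM in EWSR1::FLI1 high and 22.0 ± 5.77 in EWSR1::FLI1 low (SD, n = 3). The difference of -0.98 on the log2 scale (SE 0.23) did not pass at 0.01 (adjusted p = 0.0190). When EWSR1::FLI1 low replicate 1 was left out, FAS passed at 0.01 with a change of -0.77 on the log2 scale (adjusted p = 0.00945). FAS (chr10:90750414-90775542, plus strand) overlaps ACTA2, a smooth muscle actin gene on the opposite strand, and whether the counting used strand is not given in the sources used here. ACTA2 was at 107 ± 11.2 FPKM in EWSR1::FLI1 high and 165 ± 41.5 in EWSR1::FLI1 low (SD, n = 3; log2 fold change 0.59, adjusted p = 0.0813), so its mean differed in the opposite direction to that of FAS. TNFRSF10B overlaps RHOBTB2 (3.71 FPKM in EWSR1::FLI1 high), and TNFSF12, TNFSF13, TNFRSF6B, TNFRSF12A, TNFRSF25, LTBR and CD27 overlap other annotated genes too. Reads in the shared stretches may have been counted for either gene or for neither. For TNFSF12 and TNFSF13 the overlapping gene is the read-through TNFSF12-TNFSF13, listed at 0 in all 6 libraries. The low counts of TNFSF12, TNFSF13 and TNFRSF6B therefore do not show absence.

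The TRAIL receptors were among the most abundant members. TNFRSF10B (DR5) had 46.0, 53.2 and 54.1 FPKM in the EWSR1::FLI1 high libraries and 33.3, 88.0 and 55.3 in the EWSR1::FLI1 low libraries. TNFRSF10A (DR4) had 6.42, 9.32 and 7.45 FPKM against 2.699, 15.3 and 10.85. The truncated receptor TNFRSF10D, a decoy for TRAIL, had 21.2, 25.2 and 26.5 FPKM against 14.4, 56.7 and 38.9. In all 3 genes EWSR1::FLI1 low replicate 1 was the lowest library of the 6 and EWSR1::FLI1 low replicate 2 the highest, so the groups overlapped. The log2 fold changes were 0.10, 0.05 and 0.38, with adjusted p values of 0.864, 0.961 and 0.562. TNFRSF1A, the broadly expressed TNF receptor with a death domain, had a log2 fold change of 0.38 (SE 0.25, adjusted p = 0.321), and TNFRSF21 (DR6) one of -0.29 (SE 0.19, adjusted p = 0.311). EDAR and TNFRSF25 were under the filter, with at most 15 and 7 reads in a library.

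Of the decoy receptors only TNFRSF10D passed the filter. TNFRSF11B (osteoprotegerin, the soluble decoy for TNFSF11 that also binds TNFSF10) missed it narrowly, with a mean of 0.49995 FPKM over the 6 libraries. Rescaled to exon length as was done for TNF, its mean was 0.660 FPKM, which is over the filter. Its deposited FPKM values were 0.244, 0.267 and 0.220 in the EWSR1::FLI1 high libraries and 0.671, 0.832 and 0.766 in the EWSR1::FLI1 low libraries. The groups did not overlap, and the spread within each was small beside the gap between them. The reads were 6, 5 and 4 against 14, 16 and 28, and their scaled ratio was 3.10 (95% interval 1.73 to 5.89). An exact two-sided permutation test of the 6 FPKM values gave p = 0.1, the smallest value that 3 against 3 libraries allow. In the fit without a filter on low values its log2 fold change was 0.50 (SE 0.05, adjusted p = 0.0179). TNFSF14 at a mean of 0.445 FPKM and EDA2R at 0.370 were the next members below the limit, and TNFRSF17 at 0.554, TNFSF8 at 0.582 and TNFRSF19 at 0.614 the next above it. TNFRSF10C had at most 7 reads in a library.

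Of the 16 receptors without a death domain, 8 passed the filter and none was called. TNFRSF12A, the receptor of TWEAK (TNFSF12), was the most abundant of them at 22.8, 42.5 and 40.5 FPKM in the EWSR1::FLI1 high libraries and 26.4, 99.2 and 71.4 in the EWSR1::FLI1 low libraries. EWSR1::FLI1 low replicate 1 lay among the EWSR1::FLI1 high libraries while the other EWSR1::FLI1 low libraries lay above them (log2 fold change 0.74, SE 0.45, adjusted p = 0.288). CD40, the receptor of CD40LG on antigen-presenting cells, had 3.86, 3.29 and 3.74 FPKM in the EWSR1::FLI1 high libraries and 1.85, 2.07 and 1.82 in the EWSR1::FLI1 low libraries. The EWSR1::FLI1 low libraries were all lower and close to each other, and the log2 fold change of -0.67 (SE 0.15) did not pass at 0.01 (adjusted p = 0.0161). TNFRSF1B, the TNF receptor without a death domain, had 0.285, 0.239 and 0.211 FPKM against 0.949, 1.39 and 1.08. All 3 EWSR1::FLI1 low libraries were higher, on 11, 7 and 6 reads against 31, 42 and 62, and the log2 fold change of 0.78 (SE 0.16) just missed the call (adjusted p = 0.0120).

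TNFRSF9, the receptor of TNFSF9, had a log2 fold change of -0.28 (SE 0.39, adjusted p = 0.665) with 6.09, 8.29 and 7.20 FPKM in the EWSR1::FLI1 high libraries and 2.76, 12.3 and 5.04 in the EWSR1::FLI1 low libraries, again with EWSR1::FLI1 low replicates 1 and 2 at the extremes. TNFRSF19 had a log2 fold change of 0.53 (adjusted p = 0.101) and TNFRSF17 (BCMA) one of 0.49 (adjusted p = 0.158), each with EWSR1::FLI1 low above EWSR1::FLI1 high in every library. TNFRSF13C (the BAFF receptor) had a log2 fold change of -0.26 (adjusted p = 0.472). The 8 receptors under the filter were TNFRSF18, TNFRSF14, TNFRSF8, TNFRSF11A, TNFRSF13B, LTBR, CD27 and EDA2R, with at most 29 reads in a library. Among them only TNFRSF14 had groups that did not overlap, at 4, 6 and 3 reads against 11, 10 and 29. Of all genes under the filter with reads, 8.68% had EWSR1::FLI1 low above and 2.09% had it below.

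**Figure D3:**
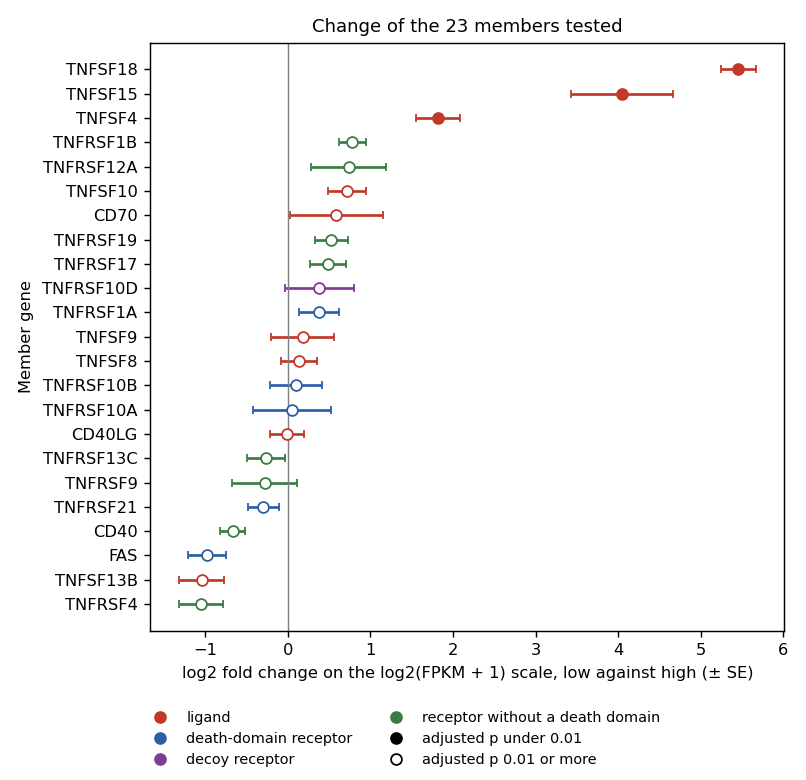
Log2 fold change of the 23 tested members on the log2(FPKM + 1) scale, for EWSR1::FLI1 low relative to EWSR1::FLI1 high, with bars for ± SE, colour for the role and filled points for an adjusted p under 0.01. Only TNFSF18 at 5.45, TNFSF15 at 4.05 and TNFSF4 at 1.82 are filled, and the other 20 members lie between -1.05 and 0.78.

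At a looser limit, an adjusted p under 0.05, TNFRSF1B joined the 3 ligands, and FAS, CD40, TNFSF13B and TNFRSF4 were lower. That is 4 of 23 members higher, where 9.87% of all tested genes were, and 4 of 23 lower, where 9.91% were. Counted by groups that do not overlap, EWSR1::FLI1 low lay above EWSR1::FLI1 high in 7 of the 23 tested members, where this held for 17.5% of all tested genes. It lay below in 4 of 23, where this held for 23.6%. Of the members higher in EWSR1::FLI1 low, TNFRSF1B, TNFRSF19, TNFRSF17 and TNFSF10 passed the filter only through that group. TNFRSF4, among the lower ones, passed only through EWSR1::FLI1 high. The counts of tested members thus rest in part on the filter, and no conclusion is drawn from them. Of the 21 members under the filter, TNFRSF11B, TNFSF14, TNFRSF14, TNFRSF10C and EDAR had EWSR1::FLI1 low above EWSR1::FLI1 high, where 8.68% of the 8984 genes under the filter with reads did. EWSR1::FLI1 low lay below in 0 of the 21, where 2.09% of those genes did. The 21 include TNFRSF6B, listed at 0 in all 6 libraries, whereas the 8984 genes hold none without reads. The 5 members named had at most 29 reads in any library.

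The order of the members by mean FPKM changed between the groups. In EWSR1::FLI1 high the first 5 were receptors, namely TNFRSF10B at 51.1, FAS at 43.6, TNFRSF12A at 35.3, TNFRSF10D at 24.3 and TNFRSF1A at 14.4. Neighbours in this order overlapped between libraries down to TNFRSF10D, whereas TNFRSF10D lay above TNFRSF1A, and TNFRSF1A above TNFRSF10A, in every library. In EWSR1::FLI1 low the order began with the ligand TNFSF18 at 80.6, followed by TNFRSF12A at 65.7, TNFRSF10B at 58.9 and TNFSF15 at 58.6. There the libraries of each of the first 14 members overlapped those of the next, so their order does not exceed the spread between libraries. The order also depends on the gene length used. Rescaled to exon length as was done for TNF, TNFSF18 came to between 25.8 and 36.6 FPKM in EWSR1::FLI1 low. TNFRSF10B so rescaled came to between 39.0 and 103 there, above TNFSF18 in every library. TNFRSF12A came to between 21.4 and 80.4 and TNFSF15 to between 19.2 and 158.

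The EWSR1::FLI1 low libraries differed from each other more than the EWSR1::FLI1 high libraries did, with a chi-square per degree of freedom of read counts over genes between 20.2 and 31.5 for pairs of the former and between 4.25 and 6.27 for pairs of the latter. A split between the EWSR1::FLI1 low libraries was seen in 5 of the 23 tested members. Its pattern was not among the planned results and was taken from these same libraries, so the count is a description. TNFSF9, CD70, TNFRSF10A, TNFRSF10B and TNFRSF10D had EWSR1::FLI1 low replicate 1 below and EWSR1::FLI1 low replicates 2 and 3 above all 3 EWSR1::FLI1 high libraries, a pattern that 5.98% of all tested genes showed. CD70 had 7.20, 7.28 and 6.50 FPKM in the EWSR1::FLI1 high libraries, 3.08 in EWSR1::FLI1 low replicate 1, and 25.0 and 15.3 in the other EWSR1::FLI1 low libraries. TNFSF9 had 4.81, 4.82 and 5.82 FPKM against 2.43, 10.3 and 7.59. These 5 genes come from a pair of gene clusters. TNFSF9 and CD70 are neighbours on chromosome 19, at chr19:6531037-6535935 and chr19:6583194-6604114, and the TRAIL receptor genes lie together on chromosome 8. FLI1 in EWSR1::FLI1 low replicate 1 was at 2.91 FPKM, against 4.29 and 3.68 in replicates 2 and 3, and its part in the split was not tested.

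Without EWSR1::FLI1 low replicate 1, 5 of 23 members were called higher, where 9.37% of all tested genes were, and 2 of 23 lower, where 4.68% were. CD70 (log2 fold change 1.37, adjusted p = 0.00315) and TNFRSF1B (0.84, adjusted p = 0.00543) joined the higher members, and FAS and TNFSF13B (log2 fold change -1.29, adjusted p = 0.00784) were lower. TNFRSF10D came to 0.93 (adjusted p = 0.0103) and TNFRSF12A to 1.28 (adjusted p = 0.0135), short of the call. TNFSF18 was at 5.58, TNFSF15 at 4.71 and TNFSF4 at 2.13 on the same scale.

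**Figure D4:**
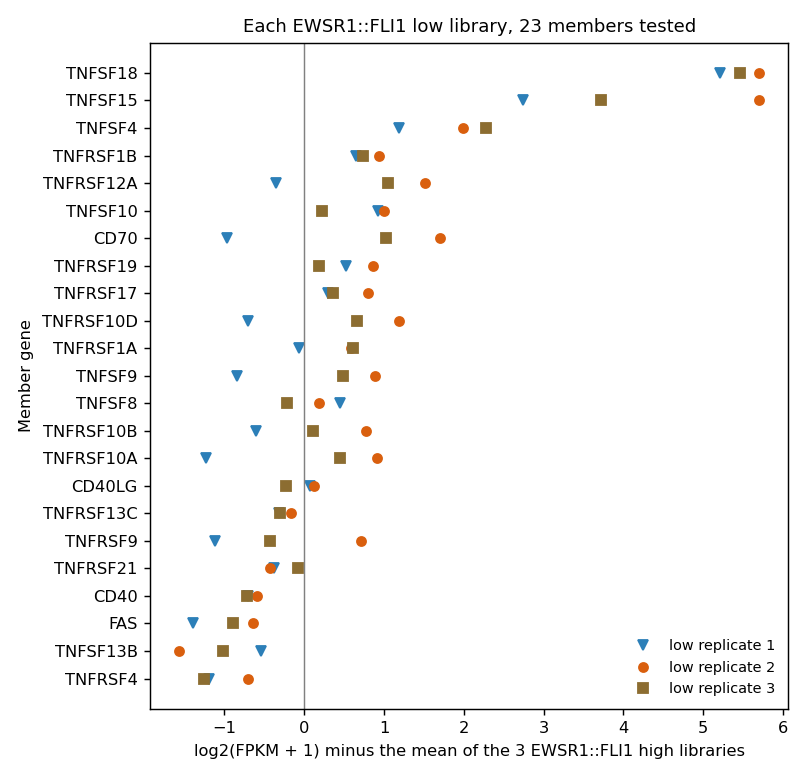
Difference of each EWSR1::FLI1 low library from the mean of the 3 EWSR1::FLI1 high libraries on the log2(FPKM + 1) scale, for the 23 tested members, with 1 marker shape per EWSR1::FLI1 low replicate. The 3 called ligands lie right of 0 in every EWSR1::FLI1 low library, whereas CD70, TNFSF9, TNFRSF10A, TNFRSF10B and TNFRSF10D have replicate 1 left of 0 and replicates 2 and 3 right of it.

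The genes that carry the signal inside the cell were taken from lists of receptor adaptors and death signalling, NF-kB subunits and regulators, and common NF-kB target genes. These lists were chosen with earlier results of these data known, so their counts are a description. Of 37 tested adaptor and death signalling genes, limma called none. At an unadjusted p under 0.05, 8 were higher and 3 lower (15.6% and 18.7% of all tested genes), and limma-voom called 5 higher (7.99% of all tested genes). Without EWSR1::FLI1 low replicate 1, 5 of the 37 were called higher, where 9.37% of all tested genes were. The largest changes were those of TRAF1, an adaptor of TNFRSF1B (log2 fold change 1.63, adjusted p = 0.0599), and BIRC2, the ubiquitin ligase cIAP1 (1.11, adjusted p = 0.0469). Of the 14 NF-kB core genes, limma called none, with 1 higher at an unadjusted p under 0.05 and 1 called higher by limma-voom or without EWSR1::FLI1 low replicate 1. NFKBIZ, an inducible nuclear regulator, had a log2 fold change of 1.497 (adjusted p = 0.0115) and NFKBIB, an inhibitor that holds NF-kB in the cytoplasm, one of -0.72 (adjusted p = 0.169).

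Of 30 tested NF-kB target genes, 7 rose, where 4.51% of all tested genes did, and none fell, with a median log2 fold change of 1.39. At an unadjusted p under 0.05, 18 were higher and 0 lower, where 15.6% and 18.7% of all tested genes were. Limma-voom called 9 higher, where 7.99% of all tested genes were. PTX3 (a soluble pattern recognition protein) rose by 5.08 on the log2 scale, from 6.32 ± 2.79 to 270 ± 162 FPKM (SD, n = 3; adjusted p = 0.000266). LIF (a cytokine of the IL6 family) rose by 3.82 (adjusted p = 0.00844), PTGS2 (cyclooxygenase that makes prostaglandins) by 3.56 (adjusted p = 0.00154) and PLAU (urokinase) by 3.04 (adjusted p = 0.000112). VCAM1, CEBPD and CCL2 were the other genes called. The classical feedback targets NFKBIA (log2 fold change -0.27, adjusted p = 0.498) and TNFAIP3 (0.72, adjusted p = 0.311) were named after their values were seen and were not called. TNFAIP3 showed the split described above, with 7.14 FPKM in EWSR1::FLI1 low replicate 1 and 37.4 and 16.3 in replicates 2 and 3. Its EWSR1::FLI1 high libraries lay between 8.47 and 10.6 FPKM. The number of target genes called higher was 14 without EWSR1::FLI1 low replicate 1, where 9.37% of all tested genes were, and 4 without EWSR1::FLI1 high replicate 3, where 2.08% were. With no filter on low values it was 2, where 0.338% of the 26364 genes were. Many of these genes respond to other pathways too, and the list was chosen with earlier results of these data known. Its counts beside the shares of all genes are therefore no test of NF-kB activity. Of 4 related genes that the name rule leaves out, NGFR and RELT passed the filter and neither was called (log2 fold change -1.10, adjusted p = 0.0139, and -0.23, adjusted p = 0.642), with NGFR also at an unadjusted p under 0.05 and called lower by limma-voom. The other 2, EDA and TNFSF12-TNFSF13, were under it.

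**Figure D5:**
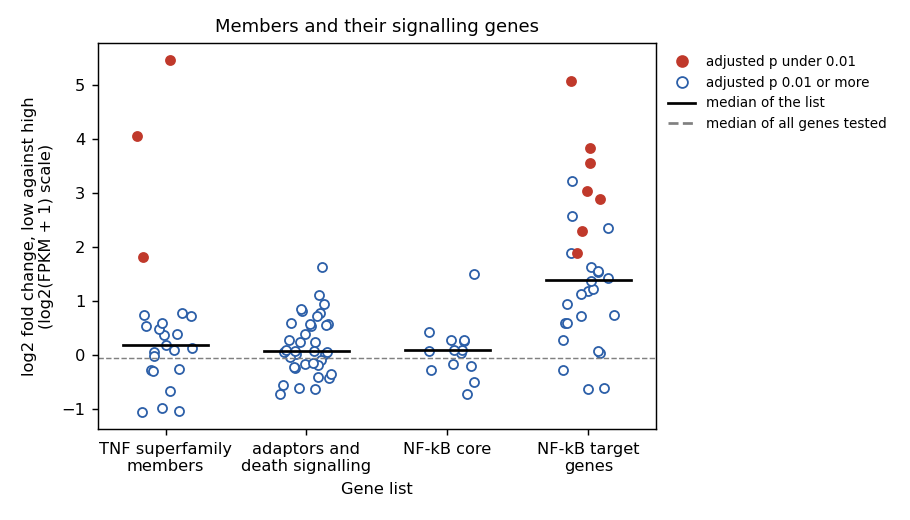
Log2 fold change of the tested members and of the genes in the 3 signalling lists on the log2(FPKM + 1) scale, with 1 point per gene, filled at an adjusted p under 0.01, a bar at each list's median and a dashed line at the median of all tested genes. The medians of the members (0.18), the adaptors and the NF-kB core genes lie close to the dashed line at -0.05, and that of the NF-kB target genes lies at 1.39.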

How the data were processed

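RNAseq was performed on total RNA of A673/TR/shEF cells, depleted of ribosomal RNA with Ribo-zero and made into libraries with ScriptSeq v2. The submitters' processing notes name STAR 2.5.0b, Cufflinks 2.2.1, DESeq2 1.6.3, bedtools 2.17.0 and GRCh37. The gene annotation is not given in the sources used here. The deposited values were FPKM, 1 per gene symbol in each library, and the authors did not pool replicates. The authors also deposited a pooled mean signal per gene, the mean normalized count over the 6 libraries, beside their own comparison (log2 fold change, standard error, score, p-value and adjusted value), which was not used. FPKM multiplied by the ratio of this mean signal to the mean FPKM gave whole reads, after scaling by 1 size factor per library, for 100% of the values above 0 (within 0.1 reads), and for 99.996% in EWSR1::FLI1 low replicate 3.

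Samples were grouped by their titles and treatment. Genes with a mean of at least 0.5 FPKM were tested with limma 3.58.1 in R 4.3.3 (lmFit, eBayes with trend) on log2(FPKM + 1), with Benjamini-Hochberg adjustment over all tested genes and a call at an adjusted p under 0.01. The steps were tested on simulated data. The members and lists were chosen with earlier results of these data known. Full values were given for called members and for TNFSF18, TNFRSF11B and FAS, and partners of called members were named with their levels. Values by library of other members, and the genes around TNFSF15, were added after the values were seen. The pattern of the split between EWSR1::FLI1 low libraries was not among the planned results. Rescaled levels of TNFSF18, TNFSF15, TNFRSF10B, TNFRSF12A, TNFRSF11B, FASLG, EDA2R, CD40LG and TNFRSF13C were also added later. Of each list the 4 called genes with the largest change were named, or the 2 largest not called. Flanking genes were the 2 outside on each side of the called neighbours. An exact permutation test was used for a single member, and intervals of read ratios are exact binomial, at 95%, and cover counting error only. Alternatives were a pseudocount of 0.1, no filter, a mean of at least 1 FPKM, quantile normalization, median-ratio scaling, eBayes with no trend, limma-voom on recovered reads, a replicate block, an adjusted p under 0.05 and leaving out each library in turn, and, added later, TNF, LTA and LTB rescaled to exon length. Other steps ran in Python 3.11.15 (matplotlib 3.10.9, pandas 2.3.3, scipy 1.17.1). Gene positions are those of GENCODE v44 on GRCh37, and promoters are from RefSeq.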

Additional observations from a re-analysis of the deposited data

How the results depend on the processing

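TNFSF18 was called higher under all 15 alternatives run, with log2 fold changes between 5.32 and 6.54. Against 3 members called higher, 1 was called with no filter on low values, where TNFSF4 (adjusted p = 0.0520) and TNFSF15 (0.0646) were not called, and between 1 and 5 were called when 1 library was left out. Without EWSR1::FLI1 high replicate 2 or 3 only TNFSF18 was called. Against 0 members called lower, 1 was called by limma-voom and with median-ratio scaling (FAS in both), and 2 with quantile normalization (FAS and CD40). At an adjusted p under 0.05, 4 were called lower, and between 0 and 2 were when 1 library was left out. With median-ratio scaling, 1807 of the 15504 tested genes were called, of which 55.0% were higher. The members added under these settings are a description, and no conclusion is drawn from them. Against 1222 genes called, there were 2381 with limma-voom, 124 with no filter, 1992 with quantile normalization and 3067 at an adjusted p under 0.05, and between 444 and 2178 without 1 library. The share called higher was 57.3%, and it was 71.8% with no filter, 49.8% with quantile normalization and between 37.7% and 67.4% without 1 library. FLI1 kept its log2 fold change of -1.57 with no filter but not its call (adjusted p = 0.0157). The direction of some members that were not called turned. CD40LG came to 0.0075 with limma-voom, 0.033 with median-ratio scaling and 0.021 with a pseudocount of 0.1, and TNFRSF10A to -0.0034 with quantile normalization. Without 1 library the log2 fold changes ranged from -0.18 to 0.14 for CD40LG, -0.39 to 0.69 for TNFRSF10A, -0.77 to 0.14 for TNFRSF9, -0.020 to 0.31 for TNFSF8, -0.18 to 0.69 for TNFSF9, -0.24 to 0.45 for TNFRSF10B and -0.023 to 0.93 for TNFRSF10D. The cause of these changes was not tested. Libraries of the same replicate number deviated from their group means with correlations across genes of 0.27, 0.09 and 0.12. Those of different numbers had correlations between -0.29 and 0.19. Whether libraries of the same number are paired was not settled, and the main test took them as unpaired. With the replicate block, 3 members were called higher, 1 was called lower (TNFSF13B, adjusted p = 0.0039) and 1702 genes were called in all. Depth limits the members with few reads, and the reads of TNFSF18 in EWSR1::FLI1 high (3 to 7 a library) set the precision of its ratio.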
